A study of Homo sapiens with 36 samples.

Results

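Anti-GATA2 chromatin occupancy was compared between wild-type and GATA2-low HUDEP-2 cells that both carried a lentiviral empty vector. The comparison took in 8 of the 36 CUT&Tag libraries described for the series, 4 of each genotype, and they were chosen by their labelled genotype, vector and antibody alone. HUDEP-2 is an immortalized human erythroid progenitor line, and the GATA2-low cells are labelled GATA2+/-. All 8 libraries came from cells infected with lentivirus and sorted for GFP before the assay. All were grown with erythropoietin, stem cell factor, dexamethasone and doxycycline, and were profiled with a rabbit anti-GATA2 antibody made in-house. GATA2-low replicate 1 carries a genotype label that reads wild-type, while its title places it with the GATA2-low cells. The title was followed, and the main counts are also given without that library. The labels do not say whether the GATA2-low cells are a single clone or whether replicates came from separate cultures, and each p-value here therefore reflects library-to-library spread, which could be technical. No RNA or protein was measured in these libraries, so the GATA2 level of the GATA2-low cells was not checked here.

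GATA2 is a zinc finger transcription factor that binds the sequence WGATAR (W is A or T, R is A or G) and is required in blood stem and progenitor cells. In erythroid differentiation it gives way at many sites to its relative GATA1, and both work with a complex of TAL1 or LYL1, E proteins, LMO2 and LDB1. Many of its sites lie in enhancers inside or between genes rather than at promoters. CUT&Tag tethers a transposase to the antibody's target, and the fragments it releases pile up as peaks. The peak lists record where a peak was called, so occupancy is described here as the presence of a peak in a library.

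Promoters illustrate both ends of the comparison. The following 4 promoters held a peak in all 8 libraries and belong to genes of erythroid or progenitor function. EPB42 encodes the membrane protein 4.2 of red cells, LYL1 and TAL1 encode helix-loop-helix partners of GATA factors, and CPOX encodes coproporphyrinogen oxidase of heme synthesis. Each sequence runs 5′ to 3′ from 250 bases before to 50 bases after the start annotated by RefSeq on GRCh38.p14, with a WGATAR match on either strand in capitals (A or T, then GATA, then A or G, or the reverse complement).
EPB42, chr15:43220969-43221268, minus strand: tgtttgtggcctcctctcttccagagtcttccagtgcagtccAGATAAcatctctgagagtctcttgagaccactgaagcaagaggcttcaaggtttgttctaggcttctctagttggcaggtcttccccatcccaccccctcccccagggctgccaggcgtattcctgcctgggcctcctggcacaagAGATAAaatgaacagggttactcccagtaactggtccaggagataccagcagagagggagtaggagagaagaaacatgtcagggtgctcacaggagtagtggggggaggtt
LYL1, chr19:13102809-13103108, minus strand: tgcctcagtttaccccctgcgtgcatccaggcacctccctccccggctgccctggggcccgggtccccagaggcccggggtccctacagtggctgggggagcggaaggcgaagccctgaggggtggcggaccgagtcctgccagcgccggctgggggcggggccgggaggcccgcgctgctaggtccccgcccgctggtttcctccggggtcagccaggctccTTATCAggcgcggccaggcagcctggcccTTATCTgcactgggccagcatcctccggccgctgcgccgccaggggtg
TAL1, chr1:47232286-47232585, minus strand: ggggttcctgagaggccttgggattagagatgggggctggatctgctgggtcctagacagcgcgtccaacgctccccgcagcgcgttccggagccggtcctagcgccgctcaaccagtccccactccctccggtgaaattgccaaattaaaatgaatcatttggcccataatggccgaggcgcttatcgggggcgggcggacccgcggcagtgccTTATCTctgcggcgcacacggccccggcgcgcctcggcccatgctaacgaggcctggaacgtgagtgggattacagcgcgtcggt
CPOX, chr3:98593562-98593861, minus strand: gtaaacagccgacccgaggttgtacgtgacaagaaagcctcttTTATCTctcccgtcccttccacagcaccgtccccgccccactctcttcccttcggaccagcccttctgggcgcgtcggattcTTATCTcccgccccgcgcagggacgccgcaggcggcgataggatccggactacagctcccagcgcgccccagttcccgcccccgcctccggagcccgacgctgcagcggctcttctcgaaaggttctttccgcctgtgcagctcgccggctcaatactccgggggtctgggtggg

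The next 3 promoters belong to the genes with the highest wild-type rank among promoters with a peak in every wild-type and in no GATA2-low library. ZNF773 encodes a zinc finger protein, CYP17A1 a steroid hydroxylase and lyase, and ATP5MC1 a subunit of mitochondrial ATP synthase. They are shown beside the first set for their WGATAR content, and all 7 were chosen after their values were seen. The first set was not chosen by rank alone, so the sets do not compare WGATAR content between classes. Of all 25 shared promoters 14 hold WGATAR. STK40 and CAT, at wild-type percentiles of 88.9 and 86.3 beside 86.4 for CPOX, are among those without it.
ZNF773, chr19:57499688-57499987, plus strand: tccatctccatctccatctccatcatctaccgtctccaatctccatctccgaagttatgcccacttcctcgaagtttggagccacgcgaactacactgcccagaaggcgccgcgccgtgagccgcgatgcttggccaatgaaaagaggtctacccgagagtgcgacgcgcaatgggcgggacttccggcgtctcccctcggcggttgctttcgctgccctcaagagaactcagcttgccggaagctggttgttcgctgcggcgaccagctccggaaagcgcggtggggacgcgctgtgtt
CYP17A1, chr10:102837364-102837663, minus strand: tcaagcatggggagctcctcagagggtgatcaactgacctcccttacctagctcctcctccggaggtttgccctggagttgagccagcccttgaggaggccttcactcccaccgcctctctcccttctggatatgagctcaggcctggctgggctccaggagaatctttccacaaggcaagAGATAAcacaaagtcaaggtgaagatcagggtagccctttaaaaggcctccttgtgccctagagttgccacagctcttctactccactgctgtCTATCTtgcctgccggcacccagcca
ATP5MC1, chr17:48892537-48892836, plus strand: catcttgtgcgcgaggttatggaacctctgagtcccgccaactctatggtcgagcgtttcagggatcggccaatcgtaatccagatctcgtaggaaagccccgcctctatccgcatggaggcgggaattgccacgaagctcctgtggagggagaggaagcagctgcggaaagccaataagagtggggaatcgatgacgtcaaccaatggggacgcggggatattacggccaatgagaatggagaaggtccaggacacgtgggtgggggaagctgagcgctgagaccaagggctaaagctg

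The 4 shared promoters hold 2 (EPB42), 2 (LYL1), 1 (TAL1) and 2 (CPOX) matches to WGATAR, while ZNF773 and ATP5MC1 hold 0 and CYP17A1 holds 2. At the EPB42 promoter the summit, the highest point of the peak, held 234, 244, 267 and 243 fragments in wild-type replicates 1 to 4. The GATA2-low libraries held 100, 92, 104 and 112 fragments there, all below every wild-type value. The TAL1 promoter held 109, 103, 133 and 95 fragments in wild-type and 38, 33, 38 and 52 in GATA2-low libraries. The ATP5MC1 promoter held 80, 81, 83 and 67 fragments in the wild-type libraries and no called peak in any GATA2-low library. Its wild-type counts stood below those of TAL1 but above all GATA2-low counts at the TAL1 promoter.

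The 8 lists held 40395 peaks, of which the 40221 on chromosomes 1 to 22 and X were used. Wild-type replicates 1 to 4 held 6641, 6555, 9121 and 8183 peaks. GATA2-low replicates 1 to 4 held 1823, 1914, 2336 and 3648. The means were 7625 ± 1247 (SD, n = 4) and 2430 ± 842 (n = 4), a ratio of geometric means of 3.23. The groups did not overlap, and the exact two-sided permutation test over the 8 libraries gave p = 0.0286, the smallest value that the 70 splits allow. Without GATA2-low replicate 1 the ratio was 2.98. Whether fewer cells held the factor at a site or each cell held less of it cannot be told apart in such libraries.

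Read totals are unknown. A value near the lowest background at the summits of a library (percentile 1), in fragments per window, served as a measure of relative depth. It was 0.222 to 0.302 in wild-type and 0.153 to 0.213 in GATA2-low libraries (means 0.265 and 0.174, exact permutation p = 0.0286). The wild-type libraries were thus also the deeper ones by this measure. With every library scaled to the lowest depth, the ratio of peak numbers was 2.63. The closest pair by background, wild-type replicate 4 at 0.222 and GATA2-low replicate 1 at 0.213, held 8183 and 1823 peaks. That GATA2-low library has the fewest peaks and the conflicting genotype label. Within groups the measure ran against peak number. It fell over GATA2-low replicates 1 to 4 (0.213, 0.168, 0.162 and 0.153) while their peak numbers rose. Wild-type replicates 1 and 2 (0.289 and 0.302) held fewer peaks than replicates 3 and 4 (0.246 and 0.222). Whether it tracks read depth was not tested. Peaks on the mitochondrial sequence, which holds no nuclear factor, numbered 7.25 ± 3.77 and 7.00 ± 2.00 per library. Among the markers of cell types, 5 of 7 erythroid genes (SLC4A1, ALAS2, KLF1, EPOR and AHSP) held a peak in all 4 wild-type libraries. Of the mast cell, basophil and eosinophil markers HDC alone held one in all 8 libraries, and of the 4 megakaryocyte markers ITGA2B alone held any. None of the 3 lymphocyte markers held one in any library, and of the 4 neutrophil and monocyte markers only LYZ did, in 2 wild-type libraries. Occupancy of a marker gene is not its expression, so these values describe peaks only.

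The position of the summits differed between the genotypes. Summits within 1000 bp of the start of a protein-coding gene made up 21.9%, 23%, 25.2% and 20.4% of the peaks of wild-type replicates 1 to 4. In GATA2-low replicates 1 to 4 they made up 9.16%, 8.73%, 9.97% and 12.4%, below every wild-type share. The means were 22.6% ± 2.02 and 10.1% ± 1.64, a difference of 12.6 percentage points (exact permutation p = 0.0286, adjusted p = 0.0286 over the 4 position classes). Without GATA2-low replicate 1 the difference was 12.3 points. In numbers, wild-type libraries held 7.32 times as many peaks at gene starts and 2.68 to 2.84 times as many in each of the other classes. The shares inside genes were 42.5% ± 1.25 and 49.4% ± 0.436, those outside genes within 50 kb 22.0% ± 0.615 and 25% ± 0.439, and those farther away 12.9% ± 0.470 and 15.5% ± 0.955. The other classes each had an exact permutation p of 0.0286 as well, but the 4 shares sum to 100 and are not independent results.

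**Figure D1:**
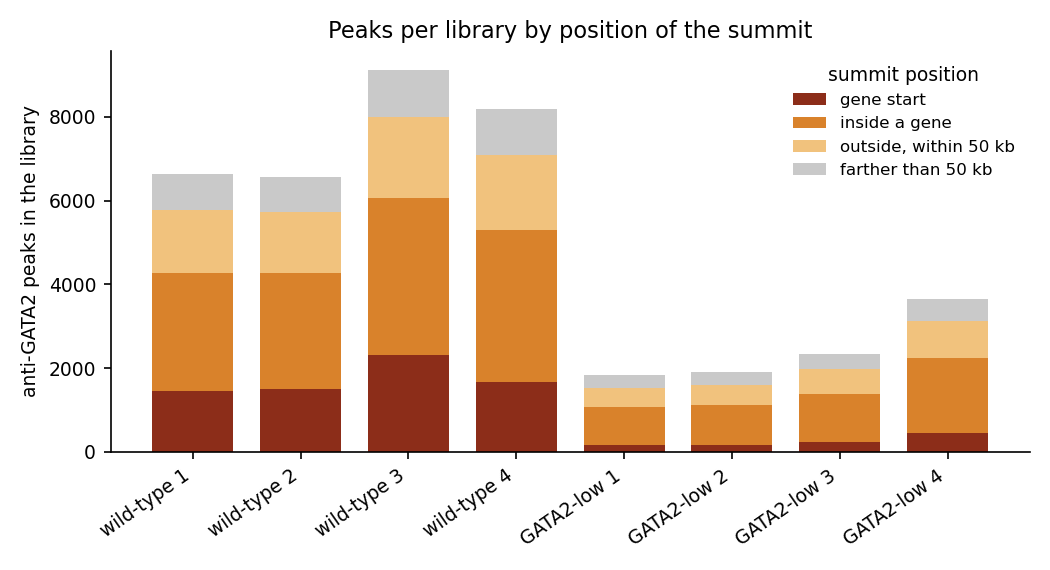
Number of anti-GATA2 peaks in each library (vertical axis), 1 bar per library, divided by the position of the summit: within 1000 bp of a gene start, inside a gene, outside within 50 kb of a gene, or farther. The wild-type bars reach 6555 to 9121 peaks and the GATA2-low bars 1823 to 3648, and the gene-start portion is 20.4% to 25.2% of a wild-type bar and 8.73% to 12.4% of a GATA2-low bar.

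This difference lay among the weaker wild-type peaks. When each list was shortened to its 1823 strongest peaks by the authors' q, the length of the shortest list, gene starts made up 6.36% ± 1.01 of wild-type and 7.72% ± 1.37 of GATA2-low peaks. The direction was then reversed and the exact permutation test gave an adjusted p of 0.343. Among peaks with a −log10 q of at least 15 the shares were 14.9% and 6.72% (exact permutation, adjusted p = 0.0381), and with libraries scaled to a common depth 17.1% and 9.64% (exact permutation, adjusted p = 0.0381).

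Merging the peaks of the 28 lists of the series into sites gave 11156 sites with a peak in at least 1 of the 8 libraries. At 1524 sites (13.7% of them), called lost sites here, every wild-type library (4 of 4) and no GATA2-low library (0 of 4) held a peak. The opposite held at 2 sites (0.0179%). Of the 4806 sites with a peak in all 4 wild-type libraries, 1298 (27%) also held one in all 4 GATA2-low libraries and are called shared sites. The remaining 1984 were partly kept, with a peak in 1 (911 sites), 2 (577) or 3 (496) GATA2-low libraries. Fisher's exact test per site cannot go below p = 0.0286 with 4 against 4 libraries. That p was reached at 1526 sites, and 0 sites passed after Benjamini-Hochberg adjustment over all 11156 (adjusted p = 0.209). All 1526 passed when the adjustment covered only the 1805 sites present in exactly 4 libraries (adjusted p = 0.0338). They share the same 8 libraries and the same smallest p, so they pass together and are not 1526 separate results. At a common depth 844 sites stood at 4 of 4 against 0 of 4, 821 of them lost sites of the full lists. Without GATA2-low replicate 1, 1579 sites stood at 4 of 4 against 0 of 3, and 1533 sites were shared by the 7 libraries left.

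How strong a site was in wild-type cells tracked whether the GATA2-low libraries held it. The 4806 sites were divided into 10 groups of equal size by their mean percentile within the wild-type lists, where 100 is the strongest peak by the authors' q. In group 1, the weakest, 0% of the 481 sites held a peak in all 4 GATA2-low libraries and 77.3% held one in none. In group 5 the percentages were 7.29% and 32.5%, and in group 8 48.2% and 4.78%. In group 10, the strongest, 96.3% of the 481 sites were found in all 4 GATA2-low libraries and 0% in none. Lost sites had a median of 26.5 fragments at the wild-type summit and a median width of 565 bp, against 84.5 fragments and 928 bp for shared sites. Gene starts held 29.1% of the lost sites (444), 20.6%, 13.2% and 9.48% of the sites kept in 1, 2 and 3 GATA2-low libraries, and 7.47% of the shared sites (97).

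**Figure D2:**
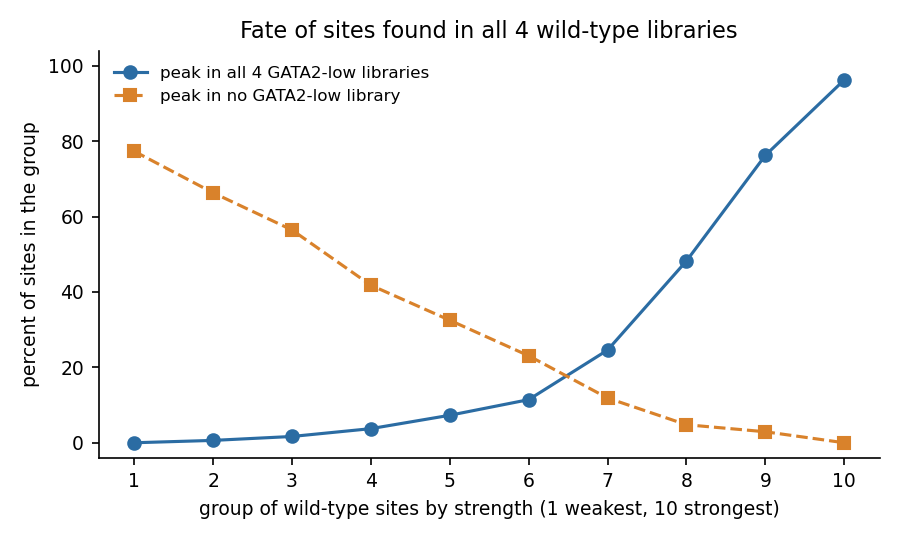
Percent of the sites found in all 4 wild-type libraries (vertical axis) that held a peak in all 4 GATA2-low libraries (circles) or in none (squares), by group of wild-type strength (horizontal axis, 1 weakest to 10 strongest, 480 or 481 sites each). The circles climb from 0% to 96.3% and the squares descend from 77.3% to 0%, crossing between groups 6 and 7.

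The strongest shared sites lay mostly outside promoters. The first by rank lay 198367 bp from CIBAR1 (chr8:93501235-93502994). It held 467, 493, 574 and 513 fragments in wild-type and 149, 185, 189 and 209 in GATA2-low libraries. Inside ZFPM2, which encodes the GATA cofactor FOG2 (chr8:105520079-105521301), the counts were 367, 382, 465 and 475 against 137, 129, 159 and 207. Beside PDZK1IP1, the neighbour of TAL1 (chr1:47180225-47182847), they were 390, 412, 483 and 404 against 124, 142, 164 and 192. At each of these sites the highest GATA2-low count was below the lowest wild-type count, while the rank stayed at the top of both lists. Another 6 of the 10 strongest lay near UTRN, PRKAB1, ODF1, OR10V1, COX7C and HMCN1.

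Over all 1298 shared sites the median number of fragments was 78.0, 77.0, 97.5 and 89.0 in wild-type replicates 1 to 4 and 31.0, 30.0, 33.0 and 41.0 in GATA2-low replicates 1 to 4. The ratio was 2.54 (exact permutation p = 0.0286). Divided by each library's background, the medians were 331 ± 78.9 and 199 ± 52.0, a ratio of 1.67, and the groups overlapped (exact permutation p = 0.0571). The difference per unit of background therefore did not pass the threshold.

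Some sites were lost although they were strong in wild-type cells. The 12 lost sites with the highest wild-type rank had mean percentiles from 87.6 to 92.8. All 12 also stood at 4 of 4 against 0 of 4 with lists of equal length and at a common depth. Both alternatives only remove peaks, so the 0 of 4 was fixed in advance. The sites were picked for high wild-type rank, so their wild-type peaks were also likely to stay. A pair lay inside ROBO2, which encodes an axon guidance receptor. The first (chr3:77235911-77236930) held 55, 58, 71 and 57 fragments in the wild-type libraries, and the second (chr3:77179571-77180390) held 58, 41, 48 and 51. No GATA2-low library had a peak at either. A site 164497 bp from ADGRL3 (chr4:62242405-62243147) held 70, 67, 86 and 77 fragments, and one 64726 bp from TBX18, a T-box factor gene (chr6:84667439-84667993), held 82, 68, 79 and 72. The remaining sites of this group lay inside USP14, USP47 and SCNN1B, beside MAS1L (2825 bp) and LYZL4 (10847 bp), and at distances of 233018 bp from FZD1, 233276 bp from CNTNAP5 and 1183878 bp from LOC124904970. None of the 12 lay at a gene start.

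**Figure D3:**
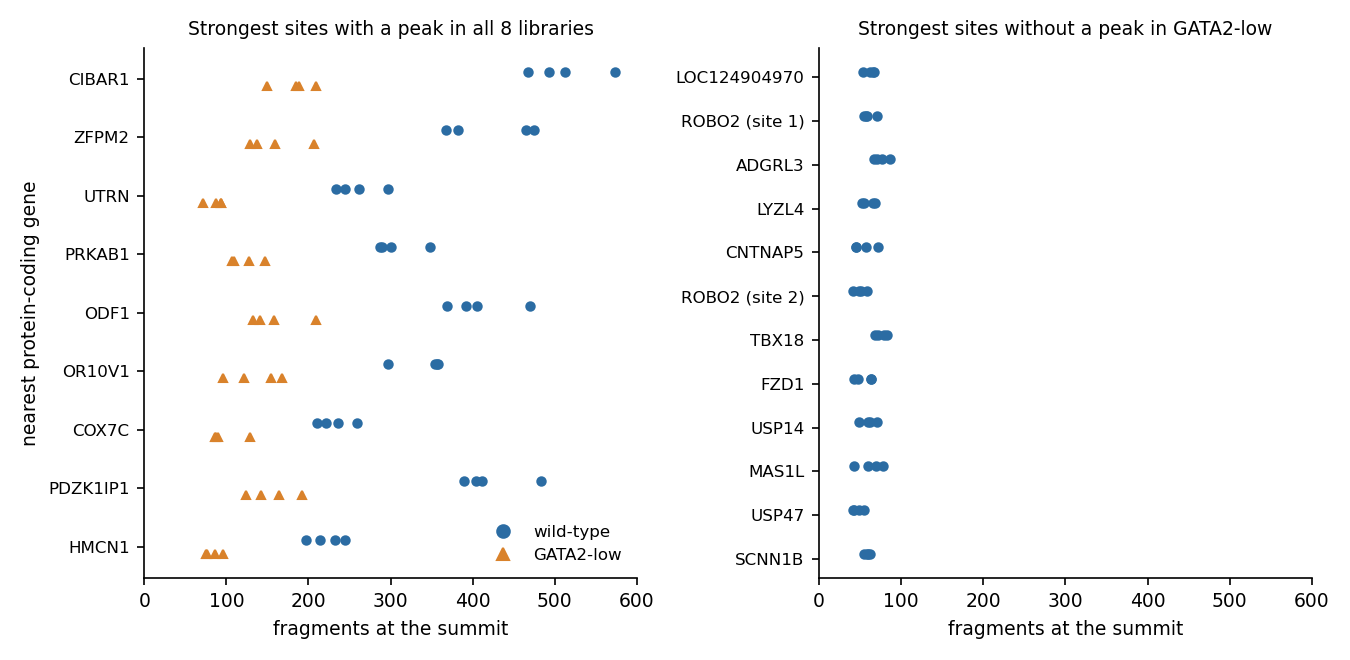
Fragments at the summit (horizontal axis) in each of the 4 wild-type (circles) and 4 GATA2-low libraries (triangles), for 9 of the 10 strongest shared sites (left) and the 12 strongest lost sites (right), named by the nearest protein-coding gene. Shared sites hold 197 to 574 fragments in wild-type and 72 to 209 in GATA2-low libraries, and lost sites hold 41 to 86 in wild-type libraries and have no peak in GATA2-low libraries.

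With all lists cut to 1823 peaks, 3026 sites held a peak in at least 1 of the 8 libraries. Of these, 65 (2.15%) stood at 4 of 4 in wild-type against 0 of 4 in GATA2-low cells and 38 the other way. Of the 65, 37 were lost sites of the full lists and 28 were partly kept, 0 lay at a gene start and 32 lay inside genes. Sites inside UROS, which encodes uroporphyrinogen III synthase, and inside ACVR1B, an activin receptor gene, were among them, as was one 940 bp from AQP1, a water channel gene of red cells. Of the 38, 35 held a peak in all 8 full lists and 2 were the sites found in GATA2-low libraries alone. Sites at the start of SPTB, which encodes red cell beta spectrin, and inside GFI1B, an erythroid and megakaryocytic repressor gene, were among these 38. The SPTB site held 36, 37, 42 and 44 fragments in wild-type and 19, 19, 28 and 23 in GATA2-low libraries. The GFI1B site held 32, 31, 45 and 47 against 19, 13, 21 and 36. A place among the 38 is one of rank within a list and need not mean more fragments in GATA2-low libraries.

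The 2 sites with a peak only in GATA2-low libraries were weak to middling. The first lay 149530 bp from MEI4, a meiotic recombination gene (chr6:78076239-78076907), and held 21, 24, 22 and 22 fragments in GATA2-low replicates 1 to 4. The second lay inside ZSCAN32, a zinc finger gene (chr16:3388221-3388746), and held 19, 12, 23 and 25. Their mean percentiles in the GATA2-low lists were 61.3 and 54.3.

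Promoter windows with a summit numbered 740, 773, 1276 and 854 in wild-type replicates 1 to 4 and 62, 60, 77 and 190 in GATA2-low replicates 1 to 4, of 15811 promoters with a RefSeq sequence. The ratio of geometric means was 10.3 (exact permutation p = 0.0286). WGATAR was found in 23.2%, 22.3%, 19.7% and 23.2% of the occupied wild-type promoters and in 45.2%, 51.7%, 40.3% and 34.2% of the occupied GATA2-low promoters, against 19.6% of all promoters. The groups did not overlap (22.1% ± 1.67 and 42.8% ± 7.40, exact permutation p = 0.0286). Over the 9 motifs searched on both strands the adjusted p was 0.0643, which does not pass. In each group the library with the most occupied promoters (1276 and 190) had the lowest share (19.7% and 34.2%). Promoter numbers and motif shares come from the full lists and were not recomputed with lists of equal length. The part of list length and peak strength in them was not tested. By class, WGATAR was in 24.3% of the 243 lost, 27.8% of the 158 partly kept and 56.0% of the 25 shared promoters. EPB42, LYL1, TAL1 and CPOX, printed above, are among the 14 shared promoters that hold it. The other 10 belong to GYPB, GYPE, SPTB, RHEX, RBM15, TSPO2, TNFRSF19, TMPRSS11F, ASPM and NRL.

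CCGGAAG, the core recognised by ETS factors, stood the other way. It was in 21.2% ± 0.714 of the occupied wild-type and 13.9% ± 2.63 of the occupied GATA2-low promoters, beside 14.2% of all promoters (exact permutation p = 0.0286, adjusted p = 0.0643). CAGCTG, an E-box, was in 15.2% ± 0.612 and 11.8% ± 1.05 with 17.7% of all promoters, and CCACACCC, bound by KLF factors, in 2.66% ± 0.531 and 1.25% ± 0.900 with 3.38%, at the same exact permutation p and adjusted p. These shares rest on few promoters in GATA2-low replicates 1 to 4, 8, 7, 8 and 23 with CAGCTG and 1, 0, 1 and 4 with CCACACCC. CCAAT was in 52.1% ± 1.14 and 50.4% ± 5.17 of the occupied promoters against 36.3% of all (exact permutation p = 0.600). The TATA box (searched as TATAAA), the YY1 motif (as AAGATGGC), the AP-1 motif (as TGACTCA) and the NRF1 motif had exact permutation p-values from 0.0571 to 0.486. Occupied promoters had a mean GC content of 64.0% in wild-type and 60.8% in GATA2-low libraries (exact permutation p = 0.0286), and the part of base composition in the motif shares was not tested. A match to a motif describes letters only.

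Genes were read as occupied when a summit lay in the body or within 10 kb. Fragments given for a gene are those of the summit with the highest percentile in each library. They can come from different sites in different libraries, or from the promoter of a neighbouring gene. Of 19970 protein-coding genes, 6953 held a peak in at least 1 library. At 1096 genes every wild-type and no GATA2-low library held a peak, which is 15.8% of those with a peak and 5.49% of all, and 1 gene (ZSCAN32, 0.0144% of those with a peak) stood the other way. All 8 libraries held a peak at 998 genes (5% of all). Fisher's exact test gave p = 0.0286 at 1097 genes and called 0 after adjustment over the 6953 (adjusted p = 0.181). At a common depth 545 genes stood at 4 against 0, and with lists of equal length 31 did while 24 stood the other way. Without GATA2-low replicate 1 there were 1136 such genes (lost genes, at 4 of 4 against 0 of 3). The counts of each list below come from the full lists. They are descriptions beside these background shares, and no list was tested. The share of members with a peak in any library ran from 4.59% (olfactory receptors) to 95.5% (red cell membrane and skeleton). It limits both shares of a list.

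**Figure D4:**
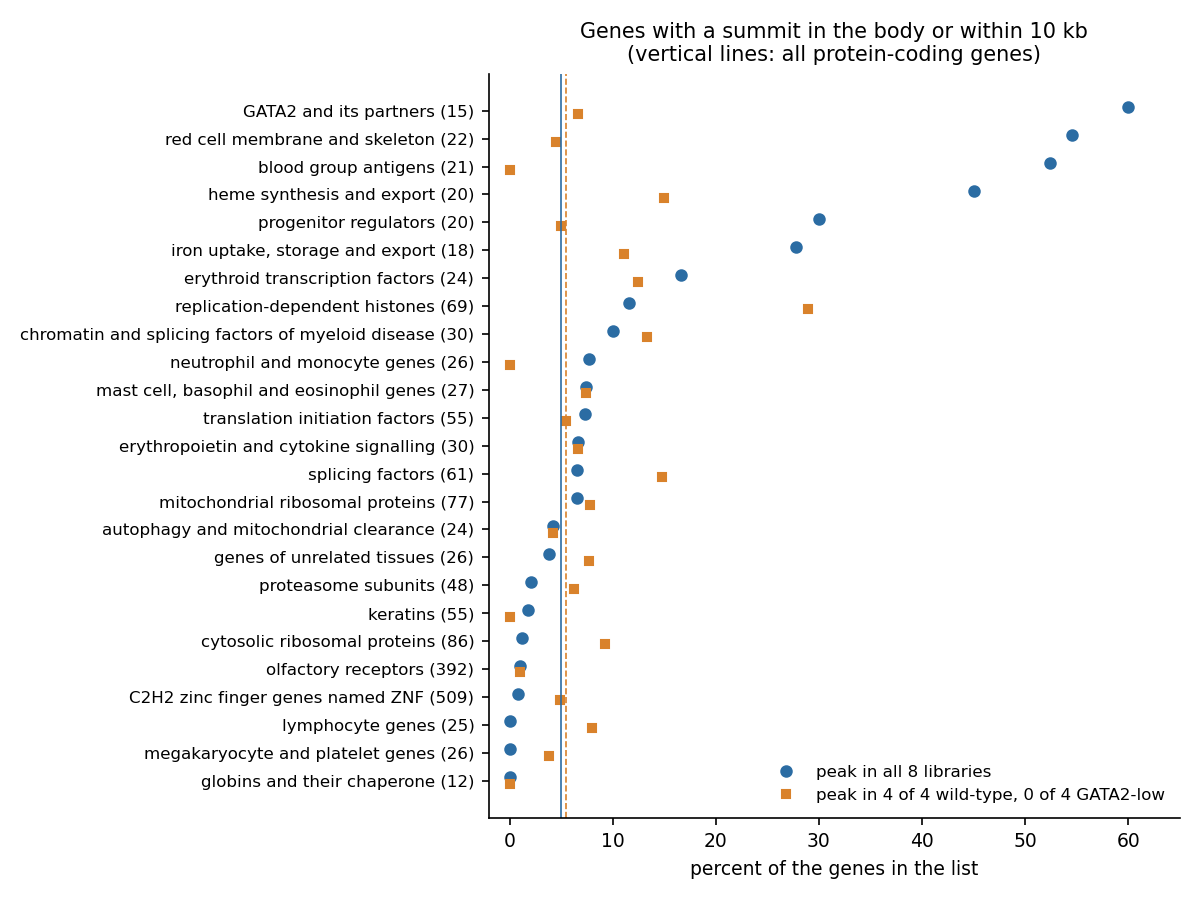
Percent of the genes in each list (number of genes in brackets) with a peak in all 8 libraries (circles) or in every wild-type and no GATA2-low library (squares); the solid and dashed vertical lines mark these shares among all protein-coding genes, 5% and 5.49%. Lists of GATA2 partners, red cell membrane, blood group and heme genes reach 45.0% to 60.0% on the first measure, and the histone genes reach 29.0% on the second.

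GATA2 and its partners kept their peaks at most members. All 8 libraries held a peak at 9 of 15 genes (60.0%), and 1 gene (6.67%, near the background of 5.49%) stood at 4 against 0. GATA2 itself held a peak in all 8 libraries, with 4.50 ± 0.577 peaks per wild-type and 2.00 per GATA2-low library, each of the 4 GATA2-low libraries holding 2. ZFPM1, which encodes FOG1, held 9, 12, 14 and 13 peaks in wild-type and 5, 5, 7 and 8 in GATA2-low libraries. Its strongest summit held 103, 92, 111 and 99 fragments against 31, 27, 41 and 51. LYL1 held 248, 289, 275 and 214 fragments at its promoter against 116, 104, 102 and 126. GATA1, TAL1, LMO2, RUNX1 and TCF3 also held a peak in every library. LDB1, the adaptor that bridges these complexes, held 51, 48, 37 and 35 fragments in wild-type and no peak in GATA2-low libraries. TCF12, an E protein gene, stood at 4 against 1 library and ERG, an ETS factor gene, at 4 against 3.

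Progenitor regulators held a peak in all 8 libraries at 6 of 20 genes (30.0%), and 1 (5%) stood at 4 against 0. CEBPE, CD34, NFE2, GFI1B and MYB were among the 6. CD34, which encodes the progenitor surface antigen, held 1 peak in each library, with 127, 123, 160 and 132 fragments in wild-type and 41, 37, 38 and 60 in GATA2-low libraries. IKZF1, a lymphoid and progenitor zinc finger gene, held 17, 24, 22 and 29 fragments in wild-type libraries and no peak in the others. MYC stood at 4 against 1 library. MECOM and IKZF2 stood at 3 against 0 libraries.

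Of 24 erythroid transcription factor genes, 4 held a peak in all 8 libraries (NFIX, FOXO3, KLF1 and NFIA) and 3 stood at 4 against 0 (ID2, TCF4 and MAFG; 12.5%). KLF1, the erythroid Krüppel-like factor gene, held 117, 116, 156 and 137 fragments against 45, 52, 31 and 80. NFIA held 6, 4, 7 and 5 peaks in wild-type libraries and 1 in each GATA2-low library, a wider gap in number than KLF1, which held 3.00 ± 0.816 and 2.25 ± 0.5. ID2, an inhibitor of helix-loop-helix factors, held 37, 52, 49 and 43 fragments in wild-type libraries. E2F2 stood at 3 against 0 libraries.

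Heme pathway genes held a peak in at least 1 library at 16 of 20 (80%), beside 34.8% of all protein-coding genes. Of these 20 genes of heme synthesis and export, 9 (45.0%) held a peak in all 8 libraries and 3 (15%) stood at 4 against 0. The 3 are 3 of the 16 with a peak, where the share over all genes with a peak was 15.8%. FECH, the ferrochelatase gene that acts last in the pathway, held 270, 273, 331 and 316 fragments in wild-type and 105, 99, 110 and 133 in GATA2-low libraries. CPOX and PPOX followed with peaks in all 8, as did ALAS2, the rate-limiting enzyme of erythroid heme synthesis. UROD, which decarboxylates uroporphyrinogen, held 35, 26, 56 and 44 fragments in wild-type libraries and no peak in the others. ABCB6, a porphyrin transporter gene, held 38, 34, 36 and 34, and ALAD, of the pathway's early part, 29, 23, 20 and 23, also with no GATA2-low peak. UROS stood at 4 against 1 library, with 37, 44, 54 and 46 fragments in wild-type and 13 in GATA2-low replicate 4. Its peak was the only one of these 4 among the 65 sites that stood at 4 against 0 with lists of equal length.

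Iron genes held a peak in all 8 libraries at 5 of 18 (27.8%) and stood at 4 against 0 at 2 (11.1%). EPAS1, a hypoxia factor gene, FTH1, the ferritin heavy chain gene, and the transferrin receptor genes TFR2 and TFRC were the strongest of the 5. TFRC held 69, 55, 88 and 66 fragments against 23, 23, 27 and 33. HFE, a regulator of iron sensing, held 40, 35, 38 and 41 fragments in wild-type libraries. FTL, the ferritin light chain gene, held 30, 23, 27 and 21 at its promoter site. Neither held a peak in GATA2-low libraries. HFE lies among the histone genes of chromosome 6 described below. Its counts are also those of H4C3, H1-6 and H2BC4, so the same summit is counted in both lists. SLC11A2, an iron transporter gene, stood at 4 against 1 library.

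Red cell membrane and blood group genes were among the most retained. Of 22 membrane and skeleton genes, 12 (54.5%) held a peak in all 8 libraries and 1 (4.55%), TPM3, stood at 4 against 0. CA1, the carbonic anhydrase 1 gene, held 200, 199, 252 and 224 fragments in wild-type and 155, 128, 165 and 183 in GATA2-low libraries, a smaller gap than at EPB42. SLC4A1, which encodes band 3, held 141, 130, 149 and 130 against 84, 50, 81 and 74. MPP1 and ADD2 stood at 4 against 1 library. PIEZO1, a mechanosensitive channel gene, held 69, 62, 70 and 58 fragments in wild-type libraries, no peak in GATA2-low replicates 1 and 2, and 21 and 25 fragments in replicates 3 and 4. Of 21 blood group genes, 11 (52.4%) held a peak in all 8 libraries and 0 stood at 4 against 0. GYPC, the glycophorin C gene, held 202, 197, 213 and 210 fragments against 87, 75, 85 and 100, and ERMAP, RHAG and RHD also held peaks in every library. XK stood at 3 against 0 libraries. GYPB and GYPE, and RHD and RHCE, are near-identical copies, so reads could be split between them and their values are uncertain.

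Genes of the globins and their chaperone held no member in all 8 libraries and none at 4 against 0, of 12 genes. AHSP, the chaperone of alpha globin, held 48, 41, 47 and 51 fragments in wild-type libraries, no peak in GATA2-low replicate 1 and 19, 21 and 21 fragments in the others. NPRL3, whose introns hold enhancers of the alpha globin genes, had the same pattern, with 81, 83, 109 and 104 fragments and then 41, 43 and 65. At both genes replicate 1 was the GATA2-low library without a peak.

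Signalling genes formed the next list. Of 30 genes of erythropoietin and cytokine signalling, 20 (66.7%) held a peak in at least 1 library, beside 34.8% of all protein-coding genes. Of the 30, 2 (6.67%) held a peak in all 8 libraries, the neighbours STAT5A and STAT3, and 2 (6.67%) stood at 4 against 0, BCL2L1 and IL6ST. STAT5A and STAT3 share the same summit, with 101, 93, 116 and 102 fragments against 19, 39, 45 and 55. BCL2L1, the survival factor gene, held 23, 35, 36 and 28 fragments in wild-type libraries. CISH, a feedback inhibitor gene of this pathway, stood at 4 against 1 library, with 58, 51, 66 and 56 fragments and then 31 in GATA2-low replicate 4. FLT3 stood at 3 against 0 libraries.

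Among genes of other blood lineages, the mast cell, basophil and eosinophil list had the same number on both sides, 2 of 27 in all 8 libraries (HDC and MITF) and 2 at 4 against 0 (IL1RL1 and LTC4S). HDC, which makes histamine, held 291, 317, 342 and 349 fragments against 98, 104, 127 and 156. IL1RL1, the interleukin 33 receptor gene, held 38, 27, 32 and 33 fragments in wild-type libraries and no peak in the others. The LTC4S peak is shared with SQSTM1, an autophagy receptor gene, and held 23, 32, 23 and 22. TPSAB1, a tryptase gene, stood at 4 against 1 library. Of 26 neutrophil and monocyte genes, LTF and CD68 held a peak in all 8 libraries. Of 26 megakaryocyte and platelet genes 0 did, and F2RL3, a thrombin receptor gene, stood at 4 against 0. Of 25 lymphocyte genes 0 held a peak in all 8, and CD4 and CD247 stood at 4 against 0 with 9 to 13 and 13 to 21 fragments. CD79A and HPGDS stood at 3 against 0 libraries and FOXP3 at 4 against 2. Of 26 genes of unrelated tissues, GAD1 held a peak in all 8, and GAD2 and SYP, which act in neurons, stood at 4 against 0.

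Of 30 chromatin and splicing factor genes of myeloid disease, 22 (73.3%) held a peak in at least 1 library, beside 34.8% of all protein-coding genes. Of the 30, 4 (13.3%) stood at 4 against 0 and 3 (10%) held a peak in all 8 libraries. The 4 are thus 4 of the 22 with a peak, where the share over all genes with a peak was 15.8%. The 4 were PRPF8, SRSF2, KDM6A and IDH2. The window of PRPF8, a core spliceosome gene, held 68, 71, 72 and 55 fragments in wild-type libraries. These are the counts of the lost site in the promoter of RILP, so the peak is not that of PRPF8 alone. DNMT3A, the DNA methyltransferase gene, held 68, 71, 103 and 81 against 31, 29, 37 and 31. In the autophagy list ATG14 held a peak in all 8 libraries and SQSTM1 stood at 4 against 0, of 24 genes.

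Gene families were counted in the same way. Of the 69 replication-dependent histone genes, 20 (29.0%) stood at 4 against 0 and 8 (11.6%) held a peak in all 8 libraries. Wild-type replicates 1 to 4 held a peak at 58, 55, 58 and 55 of these genes and GATA2-low replicates at 8, 11, 14 and 32, with GATA2-low replicate 4 above the other 3. The genes are clustered, and their windows overlap. The 20 genes are all on chromosome 6, and their windows hold 12 distinct lost sites, 11 of them at gene starts. H4C2, which encodes histone H4, held 6, 6, 6 and 4 peaks in its window in wild-type libraries and 0 in the others. H4C12, H2AC15 and H2BC15 share a strong summit that held 244, 237, 283 and 213 fragments against 110, 64, 90 and 115.

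Splicing factor genes stood at 4 against 0 at 9 of 61 (14.8%), with 4 (6.56%) in all 8 libraries. Cytosolic ribosomal protein genes stood at 8 of 86 (9.30%), RPL41 and RPL35 among them, with RPS29 alone (1.16%) in all 8 libraries. Mitochondrial ribosomal protein genes stood at 6 of 77 (7.79%) and 5 (6.49%), proteasome genes at 3 of 48 (6.25%) and 1 (2.08%), and initiation factor genes at 3 of 55 (5.45%) and 4 (7.27%). C2H2 zinc finger genes named ZNF stood at 25 of 509 (4.91%) and 4 (0.786%). Olfactory receptor genes, which act in smell, stood at 4 of 392 (1.02%) with 4 (1.02%) in all 8 libraries, and keratins at 0 of 55 with 1 (1.82%). Beside the background of 5.49%, these shares are descriptions and no family was tested.

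By number of peaks in a gene's window, the widest gaps were at GSE1, SGMS1, AGPAT5, ZFPM1, H4C2, THRB, CAST, CRIM1, DLGAP1 and JARID2. GSE1, a chromatin-associated gene, held 13, 12, 13 and 11 peaks in wild-type and 5, 3, 1 and 7 in GATA2-low libraries. CAST, the calpastatin gene, held 6, 3, 6 and 6 against 0 in every GATA2-low library. SGMS1, a sphingomyelin synthase gene, held 5, 5, 9 and 10 against 0, 1, 0 and 3. THRB, a thyroid hormone receptor gene, held 6, 5, 7 and 6 against 1, 1, 0 and 0.

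Ranks were compared among the 1298 shared sites. The length of the GATA2-low lists decides which sites are in this set, since a site without a called peak in any 1 of them is left out. Each library ranked the same sites by the authors' fold enrichment, and the ranks were compared with limma after conversion to normal scores. At an adjusted p under 0.05, 47 sites (3.62%) were ranked lower in GATA2-low libraries and 37 (2.85%) higher. Log2 fold enrichment centred on each library in place of ranks gave 102 lower and 90 higher. A fit with a replicate block gave 18 and 9, leaving out GATA2-low replicate 1 gave 63 and 46, and leaving out any 1 wild-type library gave 10 to 20 lower and 3 to 14 higher. Ranks are relative, so a site called higher may still hold fewer fragments. The sites ranked lower were strong in wild-type cells, with a median percentile of 88.2 against 54.7, and those ranked higher went from 26.6 to 62.4. Gene starts held 6.38% of the 47, 5.41% of the 37 and 7.47% of all shared sites.

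The site with the smallest p, 56204 bp from DYNC1I2 (chr2:171630729-171631704), held 108, 107, 131 and 110 fragments in wild-type and 16, 16, 16 and 19 in GATA2-low libraries. Its mean percentile among the shared sites was 98.4 ± 0.640 and 54.6 ± 10.3 (limma, adjusted p = 0.000289). A site inside OSBPL6, an oxysterol-binding protein gene (chr2:178273087-178275168), held 98, 103, 142 and 125 against 19, 22, 24 and 30, with percentiles of 97.6 ± 0.516 and 76.2 ± 2.98 (limma, adjusted p = 0.00206). Inside WT1, a transcription factor gene of progenitor cells and leukaemia (chr11:32420734-32421653), the counts were 50, 47, 54 and 56 against 13, 12, 12 and 21 and the percentiles 52.5 ± 6.06 and 14.4 ± 8.22 (limma, adjusted p = 0.0154). At these 3 sites every GATA2-low count was below every wild-type count. Others ranked lower lay inside C9orf153, 23431 bp from TRIP12, 628082 bp from NRSN1, 29379 bp from HPSE, 27896 bp from CRADD, 6215 bp from POU3F1 and 6133 bp from CPLX2.

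In the opposite direction, a site inside NRG1, a growth factor gene (chr8:32426479-32427147), held 20, 17, 23 and 24 fragments in wild-type and 17, 24, 28 and 38 in GATA2-low libraries. Its mean percentile was 8.35 ± 1.88 and 67.8 ± 16.3 (limma, adjusted p = 0.00172). A site 2535 bp from MACC1 (chr7:20219620-20220241) held 22, 22, 25 and 18 against 25, 24, 24 and 29, with percentiles of 6.11 ± 3.98 and 53.8 ± 15.3 (limma, adjusted p = 0.00399). Here the fragment counts of the groups overlapped, whereas most shared sites held clearly more in wild-type libraries. A site inside CHID1 (chr11:875899-876527) held 67, 69, 78 and 62 against 51, 40, 45 and 48 and was also ranked higher (limma, adjusted p = 0.00424). Others ranked higher lay inside HPSE2, CCNJL, GPLD1 and CSPG4 and at distances of 93398 bp from MMUT, 9462 bp from HORMAD2 and 77290 bp from NEK7.

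**Figure D5:**
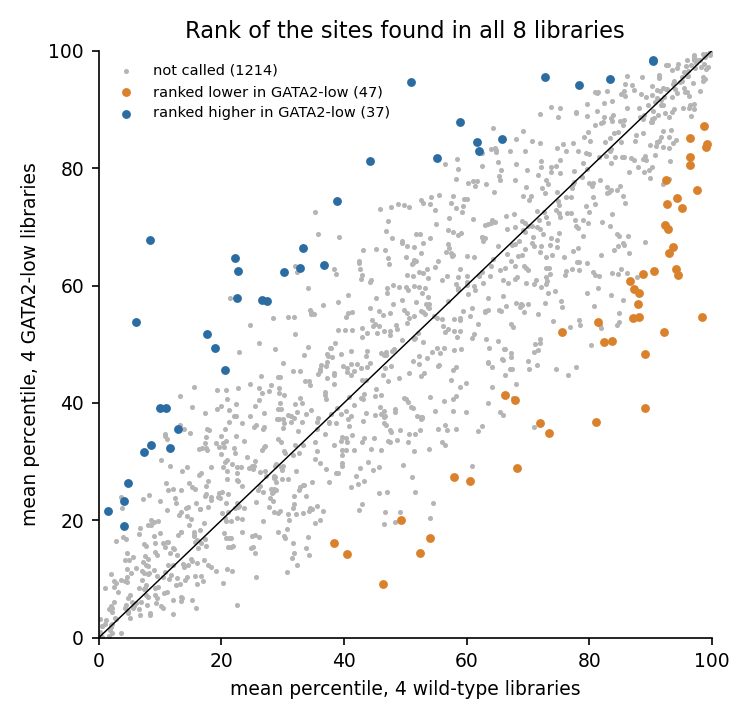
Mean percentile by fold enrichment of each of the 1298 shared sites in the 4 wild-type (horizontal axis) and the 4 GATA2-low libraries (vertical axis), with the diagonal of equal rank. The 47 sites ranked lower in GATA2-low libraries lie under the diagonal and the 37 ranked higher lie over it.

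A readout that did not choose the classes was anti-HA CUT&Tag of GATA2-low cells that received HA-tagged GATA2, with 4 libraries. A peak was present at 33.9%, 40.4%, 49.3% and 13.6% of the 1524 lost sites in replicates 1 to 4. At the 1298 shared sites the percentages were 90.4%, 93.3%, 94.9% and 66.6%, and at the 1984 partly kept sites 55.8%, 63.4%, 72.1% and 24.7%. Sites found in 1 to 3 wild-type libraries and no GATA2-low library held a peak in 11.3% ± 6.74. The order of the classes was the same in each of the 4 libraries, and replicate 4 was the lowest in each class. The classes differ in strength, and these percentages were given no test.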

How the data were processed

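Peak lists of 8 anti-GATA2 CUT&Tag libraries (HUDEP-2, wild-type and GATA2-low, empty vector) were compared; the 28 lists of the series served to merge sites. The submitters' processing notes name MACS2 2.2.7.1, Bowtie2 2.2.5, cutadapt 3.3, deepTools 3.5.3, FastQC and build hg38, without the settings. The authors deposited peaks per library, not pooled, each with a fold enrichment (a linear ratio) and p and q as −log10 values; positions are 1-based on hg38 here. These peak values are the authors' and served to order and select peaks inside each list. Fragments and background at every summit were recovered from them (match within 0.03%).

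Sites merge the 120509 kept peaks at 1 bp overlap. Single values were tested by exact two-sided permutation of the libraries, sites and genes by Fisher's exact test, and ranks with limma 3.58.1, all with Benjamini-Hochberg adjustment at a threshold of 0.05. The rank test was also run on simulated ranks. These took a single spread from the wild-type libraries for every library, so they cannot check the test where GATA2-low libraries spread more. Genes and promoter sequences came from RefSeq (GRCh38.p14); 4159 of 19970 genes have no strand there, so both ends counted as a start. Members of a list were named by number of libraries and wild-type percentile. The comparison, lists and members were chosen with earlier results of these data known. Alternatives were stricter q, equal list length, common depth, other merging and windows, leaving out each library and a replicate block. Some members counted in the totals are not reported here by name.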

Additional observations from a re-analysis of the deposited data

How the results depend on the processing

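The ratio of peak numbers and the gene-start share kept their direction and their side of the threshold when any 1 library was left out (ratio 2.98 to 3.75, difference 11.7 to 13.4 percentage points). With lists of equal length the ratio is 1 by construction, lost sites number 65, gained sites 38, lost genes 31 and gained genes 24, and the gene-start difference is −1.36 points. The difference in the share of libraries with a peak at gene ERG, gene FUT1 and gene FOXP3 then turns to −0.25 each; the cause was not tested. At a common depth lost sites number 844 and lost genes 545. At a −log10 q of at least 15 gained sites number 1 and gained genes 0, and peaks trimmed to 100 bp around the summit leave 1 gained site. Leaving out 1 library gives 1572 to 2231 lost sites, 2 to 5 gained sites, 1124 to 1630 lost genes and 1 to 3 gained genes; both highest gained counts come without GATA2-low replicate 2 and both highest lost counts without GATA2-low replicate 4. Genes read over 50 kb give 1724 lost genes. Ranks by log2 fold centred give 102 sites lower and 90 higher. Leaving out 1 library gives 10 to 63 lower and 3 to 46 higher, with 13 and 5, 10 and 3, 13 and 3, and 20 and 14 without wild-type replicates 1, 2, 3 and 4. Same-numbered libraries deviate together in 1 of 4 pairs (correlations 0.013, −0.021, −0.076 and 0.135), so the numbers do not pair them. The replicate block leaves the ratio at 3.23 and the gene-start difference at 12.6 with an exact sign-flip permutation p of 0.125, the smallest that 4 pairs allow, and gives 18 sites ranked lower and 9 higher. Of 1199 recomputed values of named genes and sites, 1090 moved by at most 1 library, 3 reversed and the others moved by more than 1 library. All 109 named results moved by at most 1 library whenever 1 library was left out, an outcome that the measure fixes in advance. With lists of equal length only 27 of the 109 did so, 79 moved by more and 3 reversed. At a common depth 8 moved by more, and at the stricter q 19 did. Depth is known only through the background at the summits, so a site without a peak in the GATA2-low libraries is one where no peak was called at their depth.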
